A study of Mus musculus with 19 samples.

Results

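Immediate early genes were followed in mouse gastrocnemius, a calf muscle, across weight loss maintenance and the first day of weight regain. The group was defined by name as 10 genes, Fos, Fosb, Jun, Junb, Egr1, Atf3, Ier2, Nr4a1, Nr4a3 and Myc. All 10 had a row among the 54176 gene symbols of the table, and all 10 were among the 17028 rows kept by the filter on low counts. The animals were of the FVB strain and were either mCK-hLPL, which carry a transgene for human lipoprotein lipase (LPL) driven in muscle by a creatine kinase promoter, or wild type (WT). Tissue came from mice refed for 24 hours (REL) or from mice held at their lowered weight (weight loss maintenance, WLM). RNA sequencing gave 5 libraries of mCK-hLPL_REL, 4 of WT_REL, 5 of mCK-hLPL_WLM and 5 of WT_WLM. Every group, WT included, is thus from mice put through weight loss, and the labels used here give no age, sex or diet. The transgene has no row of its own in the table, so the genotype labels were not checked at it. The labels do not tie libraries to animals, and p-values may therefore reflect technical spread alone.

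Immediate early genes are transcribed within minutes of a stimulus without the need for new protein, and their short-lived messenger RNAs make them a record of recent signalling. Most encode transcription factors. FOS and JUN proteins pair through leucine zippers to form AP-1, the EGR and NR4A families bind DNA on their own or as partners, and MYC acts with MAX on genes of growth. In skeletal muscle they are known to respond to contraction, hormones acting through cyclic AMP, insulin and tissue stress.

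Library totals ran from 35595030 to 51073355 counts. In CPM, the counts scaled to library size, summed levels of 10 muscle fibre markers were between 108784 and 151000 CPM in mCK-hLPL_REL, 108832 and 150946 in WT_REL, 133882 and 157783 in mCK-hLPL_WLM and 139842 and 174043 in WT_WLM. Transcripts of other tissues differed between libraries. Summed CPM of 13 T and B cell markers, Ighm apart, was 61.3 in mCK-hLPL_WLM replicate 3, 73.9 in WT_WLM replicate 1 and 74.9 in WT_WLM replicate 5, against at most 6.93 in any other library. Ighm did not mark these 3, at 225, 260 and 366 CPM, against 149 CPM in WT_WLM replicate 2 and 480 CPM in mCK-hLPL_REL replicate 4. These 3 are called the libraries with lymph node transcripts, a label whose tissue of origin was not tested. Summed liver markers reached 227 CPM in mCK-hLPL_REL replicate 5 and 233 CPM in WT_REL replicate B, and erythroid markers reached 11655 CPM in mCK-hLPL_REL replicate 1. Because this is whole muscle, fewer cells of a type and less RNA per cell cannot be told apart.

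The promoters of the AP-1 genes are shown because these members are set beside each other throughout. Each is the 250 bases before the RefSeq start on GRCm38.p6, written 5′ to 3′ on the strand of the gene. For Junb and Fosb this start differs from that of the GENCODE gene, at 84978718 and 19310051. For Junb the bases after the RefSeq start were not found in a GENCODE transcript. Jun is at chr4:95052223-95052472 (minus strand), Junb at chr8:84978749-84978998 (minus strand), Fos at chr12:85473640-85473889 (plus strand) and Fosb at chr7:19310046-19310295 (minus strand). Capitals mark TGACG, the core of the cyclic AMP response element, or TGACNTCA, a pattern that includes the full element. Both strands were searched.
Jun: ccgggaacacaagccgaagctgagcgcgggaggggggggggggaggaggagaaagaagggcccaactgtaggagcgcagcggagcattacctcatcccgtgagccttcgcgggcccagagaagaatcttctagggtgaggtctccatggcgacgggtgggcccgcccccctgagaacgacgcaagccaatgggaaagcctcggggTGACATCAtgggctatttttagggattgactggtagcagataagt
Junb: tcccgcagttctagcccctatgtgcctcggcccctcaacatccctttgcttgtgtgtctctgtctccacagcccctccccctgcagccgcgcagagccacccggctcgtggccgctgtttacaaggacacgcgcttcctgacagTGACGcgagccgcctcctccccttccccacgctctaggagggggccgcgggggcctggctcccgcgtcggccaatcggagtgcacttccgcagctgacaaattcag
Fos: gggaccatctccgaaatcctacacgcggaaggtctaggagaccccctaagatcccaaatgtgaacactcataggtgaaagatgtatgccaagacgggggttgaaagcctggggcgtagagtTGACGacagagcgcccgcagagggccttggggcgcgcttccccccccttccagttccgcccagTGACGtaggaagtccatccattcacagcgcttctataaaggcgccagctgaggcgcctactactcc
Fosb: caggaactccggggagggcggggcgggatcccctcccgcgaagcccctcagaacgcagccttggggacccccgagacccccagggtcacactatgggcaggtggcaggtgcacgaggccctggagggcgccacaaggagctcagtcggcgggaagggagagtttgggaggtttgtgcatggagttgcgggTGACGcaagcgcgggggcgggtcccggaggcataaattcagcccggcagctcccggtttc
RefSeq windows were found for 7 members, Fos, Fosb, Jun, Junb, Atf3, Nr4a1 and Nr4a3. TGACG or its reverse complement stood in 6 of these 7, against 17.8% of 32851 promoter windows of the same length. The exception was Jun, whose window held TGACNTCA, starting 45 bases before the start, as did 7.49% of all windows. That pattern was chosen after the Jun window had been read, and where it reads TGACGTCA it contains TGACG. The CArG box, which binds serum response factor, the full element TGACGTCA, the AP-1 sites TGACTCA and TGAGTCA and the EGR site GCGTGGGCG were in none of the 7 windows, against 1.47%, 1.55%, 4.46% and 0.536% of all windows. Bases beyond these 250 were not searched, and Egr1, Ier2 and Myc had no window, so sites elsewhere are not described. These matches are descriptions of letters and not of binding.

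Per kilobase of exon, Nr4a1 and Jun were the most abundant members and Fosb and Nr4a3 the least. Nr4a1 encodes the orphan nuclear receptor Nur77 and averaged 34.0 ± 9.98 CPM per kb in mCK-hLPL_REL, 46.8 ± 11.9 in WT_REL, 36.5 ± 11.6 in mCK-hLPL_WLM and 48.6 ± 7.01 in WT_WLM (SD, n = 5, 4, 5 and 5). Jun averaged 28.4 ± 5.03, 30.0 ± 8.30, 37.0 ± 7.08 and 47.5 ± 5.33 CPM per kb in the same groups. In all 4 groups the means of these genes lay within 1 SD of each other by the SD of Nr4a1, except in WT_REL, where Nr4a1 was higher by more than either SD. In WT_WLM they were followed by Junb at 10.3 ± 3.39, Fos at 7.36 ± 0.975, Ier2 at 6.92 ± 1.46, Egr1 at 6.71 ± 2.39, Atf3 at 4.67 ± 1.98 and Myc at 2.04 ± 0.356 CPM per kb, with Nr4a3 at 0.901 ± 0.464 and Fosb at 0.482 ± 0.357 last. From Junb to Atf3 neighbours in this order differed by less than the larger of their SDs.

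**Figure D1:**
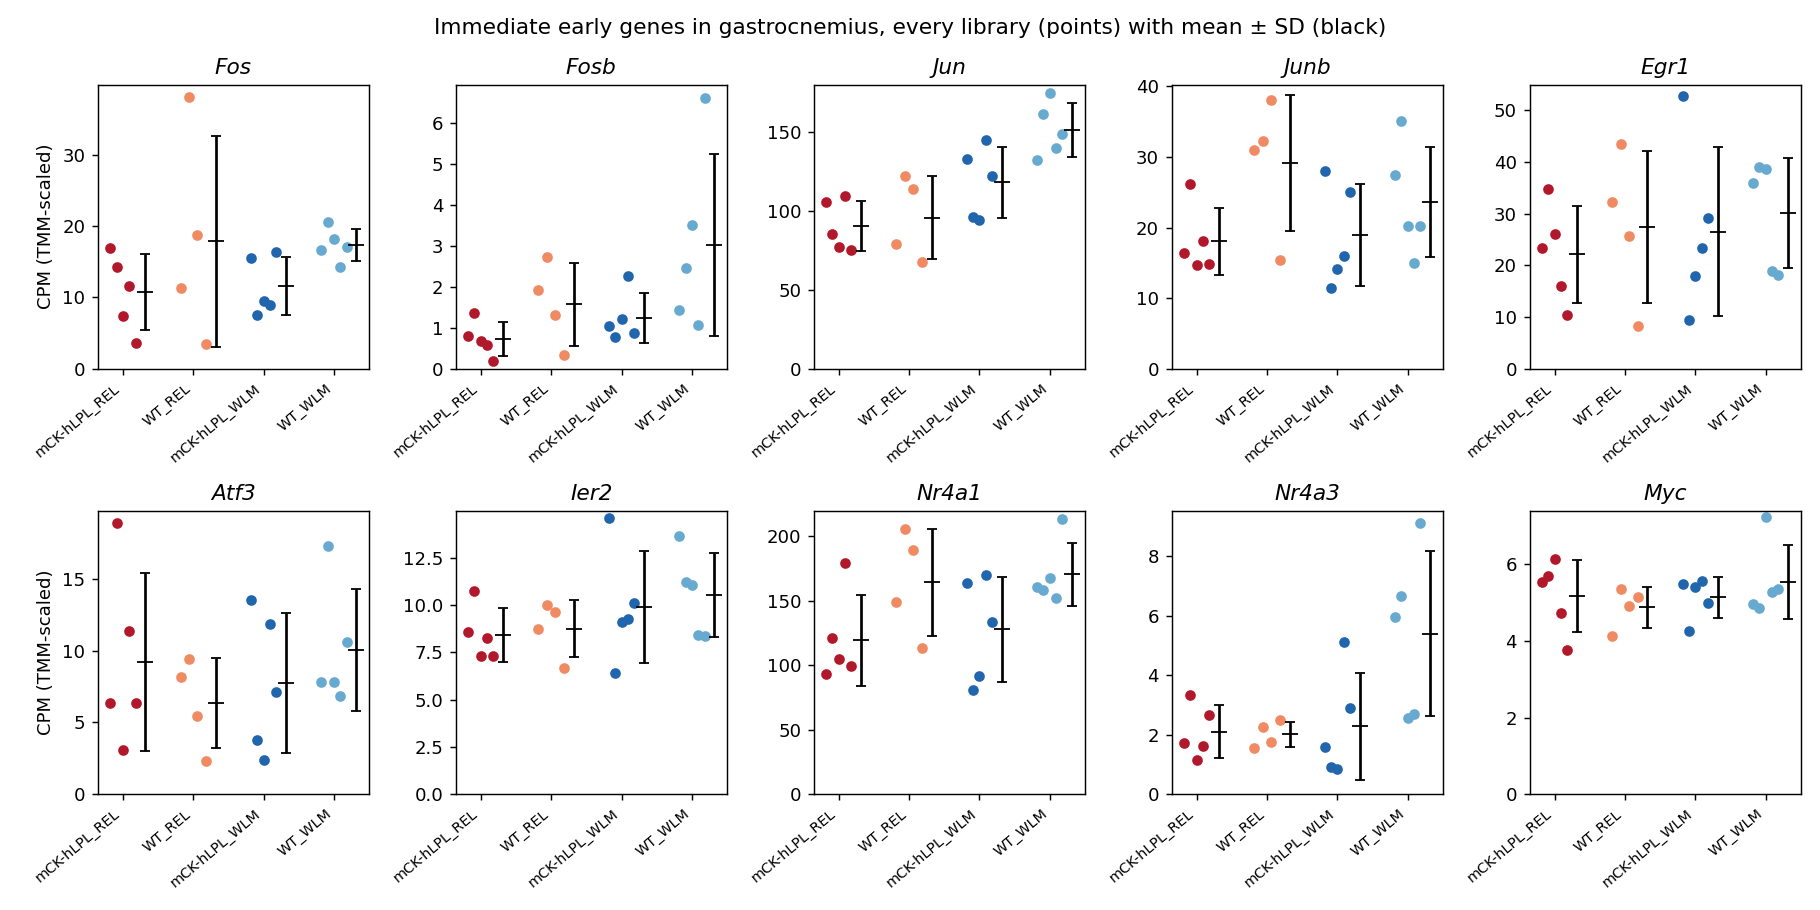
CPM of the 10 genes (y axis, linear, from 0) in every library of mCK-hLPL_REL, WT_REL, mCK-hLPL_WLM and WT_WLM (x axis), with black bars for mean ± SD. The WT_REL values of Jun lie below all WT_WLM values, while most other genes show groups that overlap widely.

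Jun was the only member that differed between REL and WLM past an adjusted p of 0.05. It encodes c-Jun, the central partner of AP-1, and is a gene of 1 exon (GRCm38 chromosome 4, 95049034 to 95052222, minus strand). In REL it was at 106, 85.6, 77.0, 109.5 and 75.1 CPM in mCK-hLPL libraries and 78.7, 122, 114 and 67.9 CPM in WT libraries. In WLM it was at 133, 96.1, 94.0, 145 and 122 CPM in mCK-hLPL libraries and 132, 162, 175, 140.0 and 149 CPM in WT libraries. Every WT_REL library was thus below every WT_WLM library, whereas the mCK-hLPL groups overlapped through the 2 low WLM libraries, replicates 2 and 3. Averaged over genotypes the log2 difference was -0.52 ± 0.12 (SE; edgeR adjusted p = 0.00467), a level in REL of 0.696 times that in WLM. In WT alone it was -0.66 ± 0.17 (adjusted p = 0.0358), and in mCK-hLPL -0.38 ± 0.16 (unadjusted p = 0.0293, adjusted p = 0.150), which did not pass. The difference between these changes was 0.28 ± 0.24 (95% interval -0.22 to 0.77, adjusted p = 1.0), so a smaller change in mCK-hLPL was not shown.

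The averaged call for Jun held without any 1 library (adjusted p from 0.00286 to 0.0148), without the 3 libraries with lymph node transcripts (adjusted p = 0.00756) and without the 3 with most liver transcripts (adjusted p = 0.0169). The WT call did not: it ended without WT_REL replicate 1 (adjusted p = 0.127) or B (adjusted p = 0.134), without WT_WLM replicate 2 (adjusted p = 0.0599), 3 (adjusted p = 0.0847) or 5 (adjusted p = 0.0553), and without either set of 3 (adjusted p = 0.0694 and adjusted p = 0.115). With replicate number as a block, in the 17 numbered libraries, the averaged call ended (edgeR adjusted p = 0.069). The same libraries without the block kept it (adjusted p = 0.0221). The WT call ended in both fits (adjusted p = 0.382 and adjusted p = 0.185). Jun shares 232 exonic bases with the antisense gene Junos, which had 119 to 267 counts per library against 3632 to 6622 for Jun. The strand setting of the counting is not given, so reads in the shared stretch could belong to either.

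Junb, an AP-1 subunit that can oppose c-Jun, was not called in any comparison, and its difference from Jun was not tested. It was at 16.4, 26.2, 14.7, 18.1 and 14.8 CPM in mCK-hLPL_REL and 31.0, 32.2, 38.1 and 15.4 CPM in WT_REL. In WLM it was at 28.0, 11.5, 14.2, 15.9 and 25.1 CPM in mCK-hLPL and 27.4, 35.1, 20.3, 15.03 and 20.2 CPM in WT. The groups overlapped in every comparison. The averaged log2 difference between REL and WLM was 0.12 ± 0.20 (95% interval -0.30 to 0.53, edgeR adjusted p = 0.724). Between genotypes in REL it was -0.69 ± 0.29 (unadjusted p = 0.0267, adjusted p = 1.0). Junb (chromosome 8, 84974484 to 84978718, minus strand) shares 173 exonic bases with Prdx2 on the other strand, an abundant gene with 2228 to 4764 counts per library, so its level is uncertain.

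Fos and Fosb encode partners of JUN proteins and varied widely within groups. Fos (chromosome 12, 85473890 to 85477273, plus strand) was at 16.8, 14.2, 7.34, 11.5 and 3.57 CPM in mCK-hLPL_REL and 11.2, 38.0, 18.7 and 3.40 CPM in WT_REL. In WLM it was at 15.5, 7.44, 9.44, 8.94 and 16.3 CPM in mCK-hLPL and 16.6, 20.5, 18.1, 14.2 and 16.97 CPM in WT. The 4 WT_REL libraries thus spanned 11.2-fold and the 5 WT_WLM libraries 1.44-fold. The averaged log2 difference between REL and WLM was -0.04 ± 0.32 (95% interval -0.71 to 0.64), so a change of 0.5 in either direction lies inside its error.

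Fosb (chromosome 7, 19302696 to 19310051, minus strand) was scarce, with 9 to 249 counts per library. It was at 0.806, 1.35, 0.672, 0.582 and 0.184 CPM in mCK-hLPL_REL and 1.92, 2.72, 1.30 and 0.337 CPM in WT_REL. In WLM it was at 1.04, 0.772, 1.21, 2.27 and 0.866 CPM in mCK-hLPL and 1.43, 2.44, 3.51, 1.05 and 6.60 CPM in WT. The highest value came from WT_WLM replicate 5, a library with lymph node transcripts, whose part in it was not tested. Averaged over genotypes Fosb was at -0.85 ± 0.40 (unadjusted p = 0.0449, edgeR adjusted p = 0.137), and between genotypes in WLM at -1.28 ± 0.54 (unadjusted p = 0.0269, adjusted p = 0.942). Neither passed.

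Nr4a3, the nuclear receptor NOR-1, showed the largest log2 difference of any member with refeeding in WT, yet did not pass. It was at 1.71, 3.34, 1.14, 1.61 and 2.67 CPM in mCK-hLPL_REL and 1.57, 2.25, 1.76 and 2.49 CPM in WT_REL. In WLM it was at 1.59, 0.926, 0.843, 5.12 and 2.91 CPM in mCK-hLPL and 5.97, 6.64, 2.55, 2.71 and 9.10 CPM in WT. All 4 WT_REL libraries were below all 5 WT_WLM libraries, 2 of which, replicates 3 and 4, came close at 2.55 and 2.71 CPM. The log2 difference was -1.41 ± 0.48 in WT (edgeR adjusted p = 0.0927) and -0.12 ± 0.45 in mCK-hLPL (adjusted p = 0.904). The interaction was 1.30 ± 0.65 (unadjusted p = 0.0603, adjusted p = 1.0). Between genotypes in WLM Nr4a3 was at -1.24 ± 0.44 (unadjusted p = 0.0111, adjusted p = 0.942). WT_WLM replicates 1 and 5, at 5.97 and 9.10 CPM, and mCK-hLPL_WLM replicate 3, the lowest library at 0.843 CPM, are those with lymph node transcripts. WT_WLM replicate 2, at 6.64 CPM, is not among them. The part of these transcripts in the differences was not tested.

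The other members gave no call in any comparison. Egr1, a zinc finger factor induced through serum response elements, ranged from 10.4 to 34.7 CPM in mCK-hLPL_REL, 8.28 to 43.5 in WT_REL, 9.37 to 52.7 in mCK-hLPL_WLM and 18.03 to 39.1 in WT_WLM. Atf3, a stress-induced factor of the ATF family, ranged from 3.09 to 18.9 CPM in mCK-hLPL_REL, 2.34 to 9.39 in WT_REL, 2.42 to 13.6 in mCK-hLPL_WLM and 6.82 to 17.3 in WT_WLM. Ier2 ranged from 7.28 to 10.8 CPM in mCK-hLPL_REL, 6.66 to 9.97 in WT_REL, 6.38 to 14.6 in mCK-hLPL_WLM and 8.35 to 13.6 in WT_WLM. For these 3 genes the ranges of all 4 groups overlapped.

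Nr4a1 ranged from 92.9 to 179 CPM in mCK-hLPL_REL, 113 to 206 in WT_REL, 81.0 to 170.4 in mCK-hLPL_WLM and 152 to 213 in WT_WLM. Its log2 difference between genotypes was -0.46 ± 0.23 in REL (unadjusted p = 0.0574) and -0.41 ± 0.22 in WLM (unadjusted p = 0.0710), with edgeR adjusted p = 1.0 and adjusted p = 0.942. Between REL and WLM it was at -0.08 ± 0.16 on average (95% interval -0.41 to 0.25). Myc was the steadiest member, from 3.76 to 6.14 CPM in mCK-hLPL_REL, 4.12 to 5.36 in WT_REL, 4.27 to 5.55 in mCK-hLPL_WLM and 4.86 to 7.23 in WT_WLM. Its averaged log2 difference between REL and WLM was -0.09 ± 0.10 (95% interval -0.29 to 0.12).

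**Figure D2:**
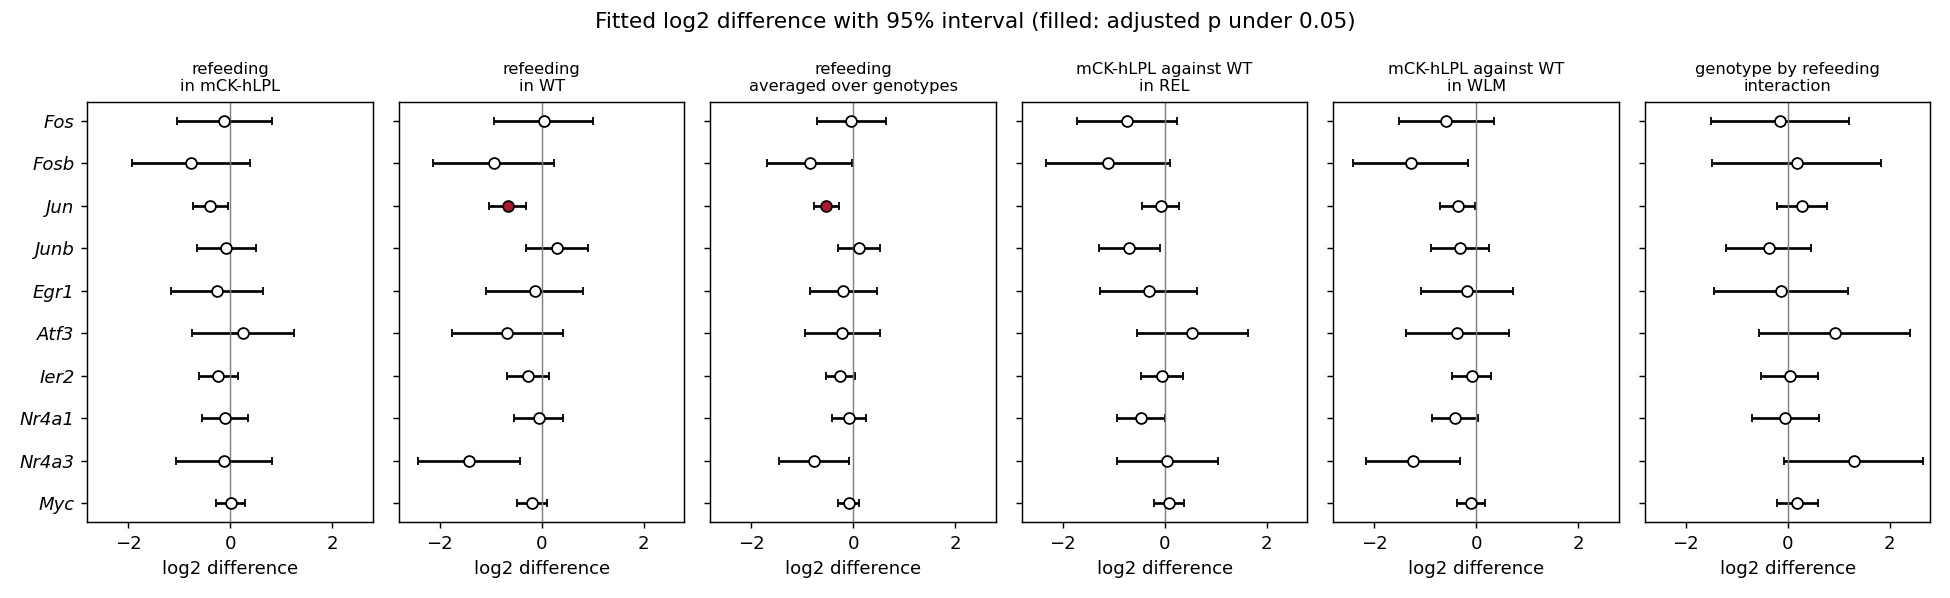
Fitted log2 difference (x axis) with its 95% interval for each member (y axis) in the 6 comparisons, REL minus WLM or mCK-hLPL minus WT. Filled points mark an adjusted p under 0.05, which Jun reached in WT and averaged over genotypes.

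Counted over all members, 1 of 10 was called with refeeding averaged over genotypes, where 20.7% of all genes tested were called. In WT it was again 1 of 10, against 4.88% of all genes, and in mCK-hLPL 0 of 10, against 8.15%, by edgeR, and none by DESeq2 or limma. At an unadjusted p under 0.05 there were 3 members on average, where 33.9% of all genes were, 2 in WT, against 20.6%, and 1 in mCK-hLPL, against 24.4%. Groups did not overlap for 2 of 10 members in WT, Jun and Nr4a3, against 10.1% of all genes, and for 0 of 10 in mCK-hLPL, against 6.57%. With 10 members these counts do not set them apart from all genes. The median log2 difference of the members was -0.115 in mCK-hLPL, -0.225 in WT and -0.203 on average, against 0.011, -0.003 and 0.001 over all genes.

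Between genotypes no member was called by edgeR. In WLM 10 of 10 members had a negative log2 difference, from -1.28 to -0.09 with a median of -0.366, against -0.001 over all genes, of which 0.0294% were called. By unadjusted p under 0.05 there were 3 members, Nr4a3, Fosb and Jun, against 4.86% of all genes, and DESeq2 and limma called none. The members vary together between libraries, so 10 negative values are not 10 separate observations. In REL 7 of 10 were negative, with a median of -0.195 against 0.011 over all genes, of which 0.0117% were called. Junb alone of the 10 had an unadjusted p under 0.05, against 4.36% of all genes, and DESeq2 and limma again called none. The groups overlapped for all 10 members in both phases, where 0.799% of all genes did not overlap in WLM and 1.43% in REL. For the interaction 0 of 10 were called, as were 0% of all genes by edgeR, with 0 members at an unadjusted p under 0.05, against 2.37% of all genes, and none called by DESeq2 or limma.

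Within groups several members differed widely from library to library. After the group means were taken off, the SD of log2 CPM was 0.97 for Fosb, 0.89 for Atf3, 0.85 for Fos, 0.80 for Egr1 and 0.775 for Nr4a3. The median over the 12779 genes with a mean of at least 1 CPM was 0.18, and these 5 members stood at its percentiles 98.4 to 99. Junb at 0.49, Nr4a1 at 0.38, Ier2 at 0.32 and Jun at 0.28 were less variable than these 5, at percentiles 94.6, 89.7, 84.1 and 78.9. Myc at 0.22 lay at percentile 64.3. Among all 17028 genes tested, whose median was 0.22, Jun lay at percentile 60.3 and Myc at percentile 48.4.

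High and low libraries were largely shared between members. WT_REL replicate 2 was the highest of its group for 8 of 10 members and WT_REL replicate B the lowest for 8. In mCK-hLPL_REL, replicate 2 was highest for 6 and replicate 5 lowest for 5. In mCK-hLPL_WLM, replicate 4 was highest for 5 and replicate 2 lowest for 7, and in WT_WLM replicate 4 was lowest for 5. The same count was not made over all genes, so the sharing may not be particular to the members. The low libraries WT_REL B and mCK-hLPL_REL 5 were also those with the most liver transcripts, at 233 and 227 CPM. mCK-hLPL_WLM replicate 2, lowest for 7 members, had the least liver transcripts of all libraries at 23.0 CPM. Summed macrophage and fibroblast markers were the lowest of their groups in mCK-hLPL_WLM replicate 2 (88.5 and 441 CPM) and WT_WLM replicate 4 (68.4 and 342 CPM). They were the highest of their groups in mCK-hLPL_REL replicate 2 (303 and 1511 CPM) and mCK-hLPL_WLM replicate 4 (220.1 and 984 CPM). In WT_REL both were lowest in replicate A (133 and 597 CPM), which was lowest for 0 members. WT_REL replicates 2 (200 and 1261 CPM) and B (187 and 1088 CPM) were neither highest nor lowest of their group for either sum. Nor was mCK-hLPL_REL replicate 5 the lowest of its group for either (244 and 999 CPM). The part of tissue content in these levels was not tested.

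**Figure D3:**
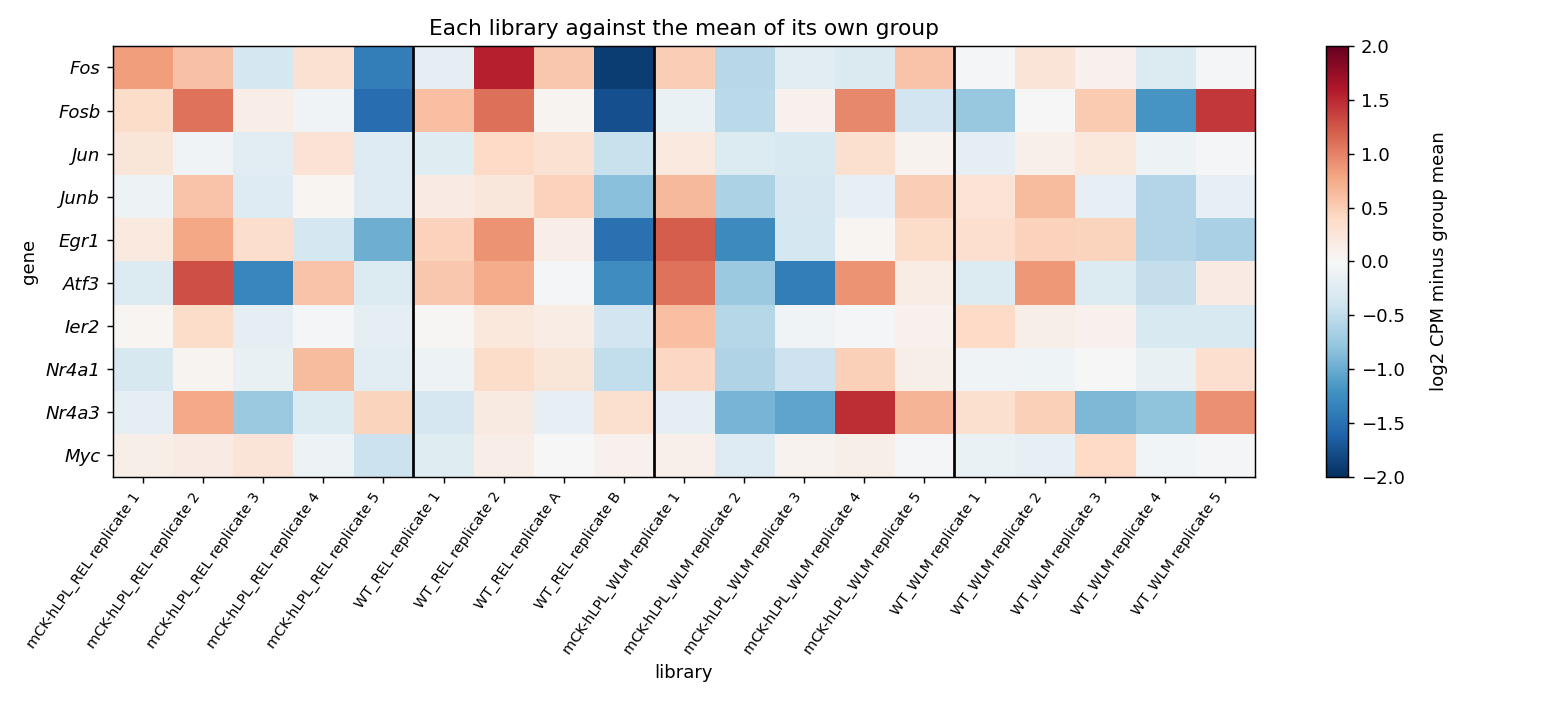
Log2 CPM of each member (rows) in each library (columns) minus the mean of its own group, red above and blue below, with black lines between groups. WT_REL replicate B and mCK-hLPL_WLM replicate 2 are blue for most members and WT_REL replicate 2 is red for most.

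Pairs of members were compared over the 19 libraries after the group means were taken off, as a description without a test. Of 45 pairs 24 had a Pearson r of at least 0.5 and 2 were below 0. Pairs of other genes were not counted. Egr1 and Ier2 had r = 0.87 (Spearman rho = 0.82; r = 0.81 without the 2 libraries farthest from the median of Egr1). Junb and Ier2 had r = 0.85 (rho = 0.90; 0.82 without 2), and Jun and Nr4a1 r = 0.76 (rho = 0.78; 0.70 without 2). Fos and Nr4a3 had r = 0.04 (rho = 0.19; 0.11 without 2). All points share the libraries and their scaling.

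Related genes were read from the same fit, averaged over genotypes, where 10.7% of all genes were higher and 9.98% lower in REL. Of the other AP-1 and ATF subunits 14 of 15 were tested, 1 rose and 4 fell. Jund, the other JUN family gene, was at 40.2 ± 3.57 CPM in mCK-hLPL_REL, against 47.7 ± 13.8 CPM in mCK-hLPL_WLM (SD, n = 5 each), a log2 difference of -0.25 ± 0.14 that did not pass (edgeR adjusted p = 0.270). It fell to 41.4 ± 2.62 CPM in WT_REL, against 59.5 ± 5.26 CPM in WT_WLM (SD, n = 4 and 5; adjusted p = 0.0445). This WT call ended in 15 of 30 alternatives, among them 10 fits without 1 library (edgeR adjusted p up to 0.138). The averaged log2 difference of Jund was -0.39 ± 0.10 (edgeR adjusted p = 0.00999). Mafk, a small MAF protein, was at -0.33 ± 0.06 and Atf4, the effector of the integrated stress response, at -0.21 ± 0.06, while Atf5 rose by 0.61 ± 0.08 (adjusted p = 6.28e-05). Both JUN genes with a call were thus lower in REL, and Junb was not called.

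Of the other early transcription factors 19 of 20 were tested, 3 rose and 4 fell. Egr2, a relative of Egr1, rose by 0.59 ± 0.16 on the log2 scale (edgeR adjusted p = 0.0125) from a low level, with 1.54 ± 0.227 CPM in mCK-hLPL_REL against 1.10 ± 0.476 CPM in mCK-hLPL_WLM (SD, n = 5 each), and 1.77 ± 0.284 CPM in WT_REL against 1.09 ± 0.138 CPM in WT_WLM (SD, n = 4 and 5). Bhlhe40, a repressor tied to the clock, rose by 0.56 ± 0.13. Klf15, a glucocorticoid target, fell by 0.61 ± 0.13 and Cebpb by 0.62 ± 0.17 (adjusted p = 0.00246 and adjusted p = 0.0126). Of 31 early feedback genes 4 rose and 3 fell. The rises included Trib1, a pseudokinase, at 0.54 ± 0.09 and Dusp6, a phosphatase of ERK, at 0.39 ± 0.07. The falls included Ppp1r15a, which directs a phosphatase to eIF2 alpha, at -0.52 ± 0.09 and Ier3 at -0.53 ± 0.11 (adjusted p from 0.000545 to 0.00203 for these 4). Plk3, a stress-responsive kinase, passed in the WT comparison, at -0.86 ± 0.23 (edgeR adjusted p = 0.0384; up to 0.129 without any of 8 WT libraries in turn), and not on average (adjusted p = 0.129). In mCK-hLPL it was at 0.17 ± 0.22 (adjusted p = 0.694). Its mean was 1.79 CPM in mCK-hLPL_REL, 1.85 in WT_REL, 1.60 in mCK-hLPL_WLM and 3.35 in WT_WLM.

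Of the early secreted and surface genes 14 of 17 were tested, 2 rose and none fell. These were Edn1, endothelin, at 0.39 ± 0.11 and Lif, a cytokine, at 0.97 ± 0.30, whose edgeR adjusted p of 0.0264 went up to at most 0.0620 without mCK-hLPL_REL replicate 2 or WT_REL replicate 2. Lif was scarce, with means of 0.340 CPM in mCK-hLPL_REL, 0.271 in WT_REL, 0.158 in mCK-hLPL_WLM and 0.150 in WT_WLM. Of 28 upstream signalling and promoter-binding factors 6 rose and 4 fell. The 4 of smallest p were the falls: Hdac5, a repressor of MEF2, at -0.40 ± 0.08, the kinase Rps6ka5 at -0.49 ± 0.11, Elk4, a partner of serum response factor, at -0.33 ± 0.08 and Crtc2, a coactivator of CREB, at -0.22 ± 0.06 (adjusted p from 0.00204 to 0.0147).

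In the MYC and MAX network 14 of 15 genes were tested, 2 rose and 2 fell. Mycl fell most, to 0.490 ± 0.154 CPM in mCK-hLPL_REL, against 1.67 ± 0.582 CPM in mCK-hLPL_WLM (SD, n = 5 each), and to 0.520 ± 0.308 CPM in WT_REL, against 1.99 ± 0.851 CPM in WT_WLM (SD, n = 4 and 5), with an averaged log2 difference of -1.86 ± 0.28 (edgeR adjusted p = 0.000161). Mlxipl, the carbohydrate-responsive factor ChREBP, rose by 0.41 ± 0.10. Fbxw7, a ubiquitin ligase for MYC and JUN, rose by 0.23 ± 0.07 (adjusted p = 0.0205; 0.0549 without WT_REL replicate 1), and Mxi1, a MAX partner, fell by 0.20 ± 0.07 (adjusted p = 0.0415; up to 0.0890 without any of 14 libraries in turn). Of 16 MYC targets of ribosome and nucleotide synthesis 5 fell and none rose. They included nucleolin, Ncl, at -0.33 ± 0.05, nucleophosmin, Npm1, at -0.54 ± 0.09, Rrs1 at -0.36 ± 0.07 and Nop58 at -0.20 ± 0.06, the last with adjusted p = 0.0557 without WT_REL replicate B. Myc itself was not called.

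Of the muscle genes listed as linked to AP-1 or NR4A factors 20 of 22 were tested, 4 fell and none rose. Whether these factors act on them here was not tested. Pdk4, which restrains pyruvate oxidation, was at -1.27 ± 0.26, the uncoupling protein Ucp3 at -0.93 ± 0.21, and the ubiquitin ligases of muscle atrophy Fbxo32 and Trim63 at -0.98 ± 0.21 and -0.61 ± 0.18 (edgeR adjusted p from 0.00204 to 0.0197). Trim63 had adjusted p = 0.0544 without WT_REL replicate B. The other related genes named here kept their averaged call without any 1 library. Without the 3 libraries with most liver transcripts the call ended for Jund (edgeR adjusted p = 0.0651), Edn1 (adjusted p = 0.0724), Crtc2 (adjusted p = 0.0517) and Nop58 (adjusted p = 0.0577). Without the 3 with lymph node transcripts it ended for Fbxw7 (adjusted p = 0.138).

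Markers of other cell types were counted in the same averaged fit. All 6 erythroid markers were higher in REL (median 1.41), as were 5 of 8 fibroblast, 4 of 8 endothelial, 3 of 6 Schwann cell and 2 of 7 smooth muscle and pericyte markers. Macrophage markers (1 of 10 higher, median 0.36), liver markers (1 of 10, median 1.88) and fat cell markers (1 of 6, median 0.31) are set against 10.7% of all genes. The liver markers ran from 0.473 to 2.74. Of these, 6 of 10 had an edgeR unadjusted p under 0.05, against 33.9% of all genes. Of 13 T and B cell markers tested 11 were lower and 1 higher (median -3.24). Their summed level without Ighm was 1.64 to 6.93 CPM in the REL libraries, against 0.946 to 2.78 CPM in the 7 WLM libraries outside the 3 with lymph node transcripts, and so was not lower in REL apart from those 3. Of 6 satellite cell markers 2 were lower. Of 10 muscle fibre markers 2 were lower, and of 4 neutrophil markers tested none was called. The part of these cells in the levels above was not tested.

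**Figure D4:**
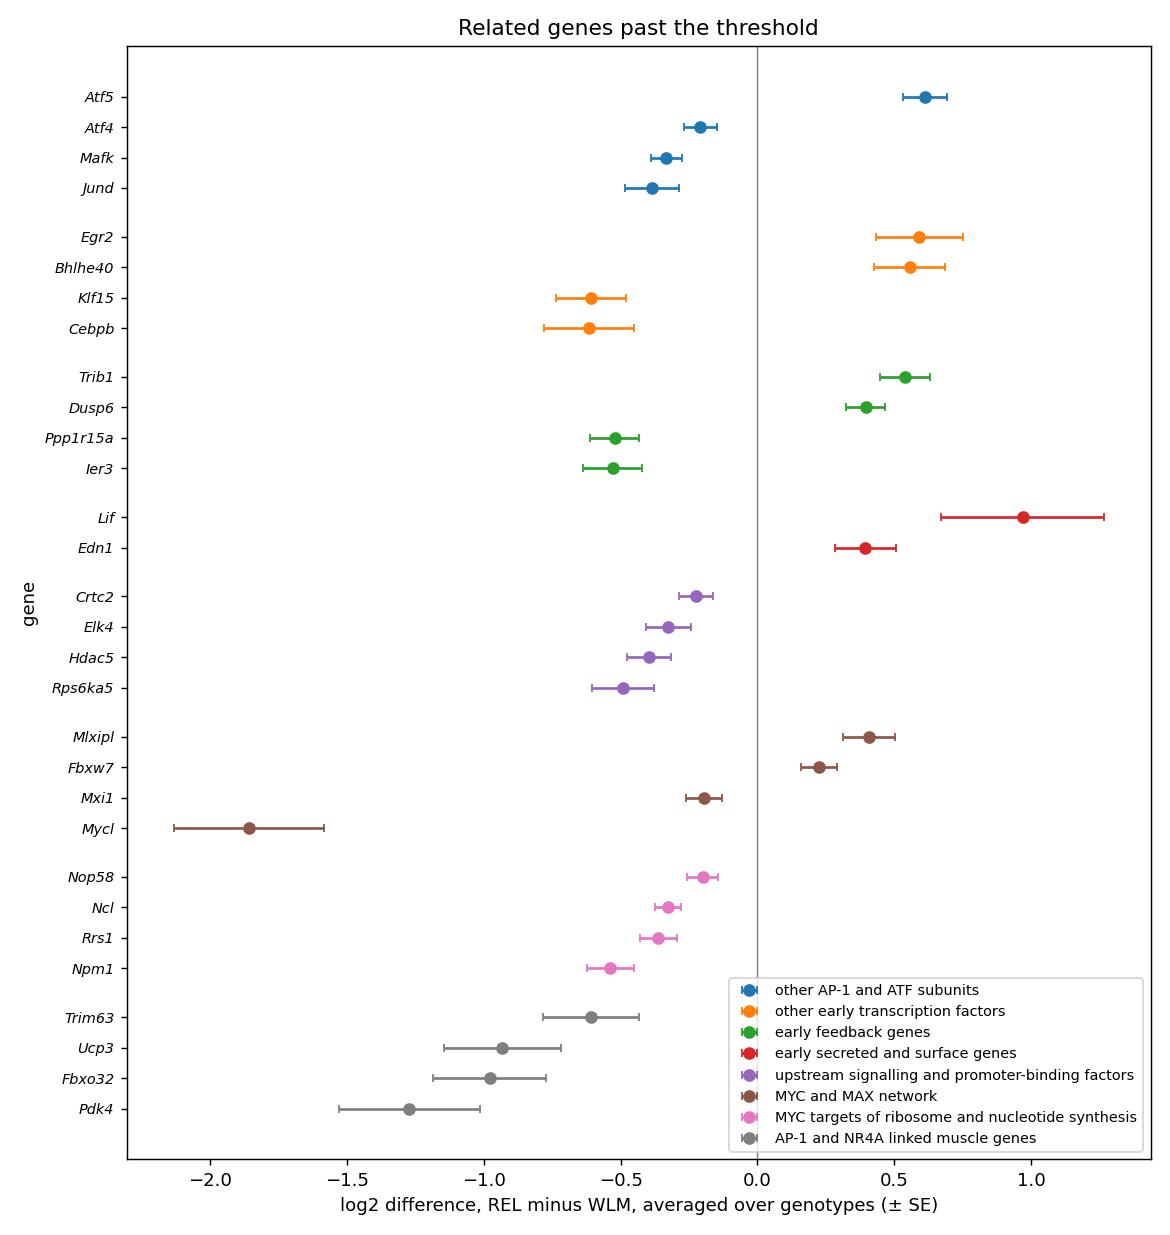
Averaged log2 difference between REL and WLM (x axis, ± SE) for up to 4 genes of smallest p past the threshold in each related list (y axis). Mycl lies farthest below 0 and Lif, at low levels in every group, farthest above.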

How the data were processed

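The authors deposited 1 table of raw counts, in whole numbers, by gene symbol and library. The submitters' processing notes name Salmon (0.14.2) and DESeq2 (1.28.1), with mm10 or GRCm38 as the genome. What each tool did, the annotation and the strand setting are not given there. In WT_REL the column numbers of 2 libraries differ from the titles, and these are called A and B.

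Genes passing filterByExpr of edgeR (a count of 10 and a total of 15 as minimum) were scaled with TMM (factors 0.88 to 1.166) and tested with edgeR 4.0.16 in R 4.3.3 (glmQLFit and glmQLFTest) in 1 model of 4 group means over 19 libraries. Two-sided p-values received the Benjamini-Hochberg adjustment over all 17028 genes in a contrast, with a threshold of 0.05. The SE is the log2 difference divided by the square root of F. CPM use TMM-scaled library sizes. Likeness used log2 CPM with a prior count of 2. DESeq2 1.42.0 and limma 3.58.1 served as alternatives. Gene positions and exon lengths are from GENCODE M21, promoters from RefSeq. The method was also run on simulated counts, drawn for each gene separately from its fitted spread. Such counts lack libraries in which genes vary together, so they cannot show that the calls hold here. Of 36 pairs of replicates the smallest chi-square per degree of freedom was 25.6, above sampling noise.

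The members, lists and alternatives were chosen with earlier results of these data known. Named are all members, per related list up to 4 genes of smallest p past the threshold in a contrast, and the 6 genes most like Fos and Nr4a3. For related genes the averaged contrast is printed, with the contrasts within each genotype for Jund and Plk3. Plk3 passed only in WT.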

Additional observations from a re-analysis of the deposited data

Results flagged for a closer look

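Each member was checked in each group for a library far from the others, 40 sets in all. Chance marks about 1 group in 20, and 2 were marked. Nr4a1 was at 213 CPM in WT_WLM replicate 5, against 168 CPM in the next highest library of that group. Myc was at 7.23 CPM in WT_WLM replicate 3, against 5.36 CPM in the next highest.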

How the results depend on the processing

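The averaged fall of Jun stayed past the threshold in 28 of 29 alternatives (log2 difference from -0.60 to -0.45) and the WT fall in 21 of 30 (-0.80 to -0.52). Without any 1 library, the count of called members with refeeding ran from 0 to 1 in WT, was 1 in each case when averaged, and was 0 in each case in the other comparisons. In WT it was 2 with only the 2 groups compared, where Nr4a3 passed (adjusted p = 0.0484), and 0 without the 3 libraries with lymph node transcripts or the 3 with most liver transcripts. The labels do not say whether replicate numbers pair the libraries. Over 21 same-numbered pairs the correlation of deviations ran from -0.333 to 0.293, with a median of 0.047 and 6 above 0.1. Differently numbered pairs were not compared, so a pairing by number was not tested. With the replicate block, in the 17 numbered libraries, 0 members were called in WT (adjusted p = 0.382 for Jun) and 0 when averaged (adjusted p = 0.069); the same libraries without the block gave 0 in WT and kept Jun when averaged. Of the related genes named, Jund, Atf4, Bhlhe40, Egr2, Cebpb, Edn1, Lif, Rps6ka5, Elk4, Crtc2, Mlxipl, Fbxw7, Mxi1, Nop58 and Trim63 were not called with the block. Of these, Jund, Atf4, Egr2, Cebpb, Edn1, Lif, Crtc2, Fbxw7, Mxi1 and Nop58 were also not called in the same 17 libraries without it, so their loss is not particular to the block. Atf4, Lif, Mxi1 and Nop58 were not called with the low-count filter off. No member called in any fit reversed. Of 1780 member values under alternatives 95 had the other sign, none of them with a call. Scaling moved the median of all genes by at most 0.018.

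Counts of all genes moved more. In mCK-hLPL with refeeding 1387 genes became 793 with no low-count filter, 628 with 2 groups, 484 with the block and 608 without lymph node libraries, and 674 to 1705 without 1 library, lowest without mCK-hLPL_REL 2 or 3 or mCK-hLPL_WLM 2, 3 or 5. In WT 831 became 492 with no filter, 1362 by DESeq2, 1276 by limma, 32 with the block, 166 in the numbered libraries alone, 316 and 462 without the lymph node and liver libraries, and 257 to 1027 without 1 library, the low counts without WT_REL 1, 2 or B or WT_WLM 1 or 3. The averaged 3521 became 992 with the block and 2170 in the numbered libraries, and 2626 to 3647 without 1 library. Between genotypes in WLM 5 became 22 by DESeq2, 2 with 2 groups or the block and 3 without lymph node libraries, and 3 to 7 without 1 library, with 3 without mCK-hLPL_WLM 1, 2 or 5 or WT_REL 1. In REL 2 became 28 by DESeq2, 9 by limma and 1 with the block, and 2 to 3 without 1 library. The interaction count of 0 became 2 by DESeq2 and 0 to 1 without 1 library. The causes were not tested. Fosb had the fewest counts of the members, 9 to 249 per library.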

Other observations

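Among 11766 genes with a mean of at least 1 CPM, symbols of predicted genes and clones (Gm, Rik and the like) left out, those whose log2 CPM went most closely with Fos over the 19 libraries, group means taken off, were Kcnq5 (Pearson r = 0.83), Btg2 (0.83), Ticam1 (0.82), Synpo2l (0.80), Sbk2 (0.79) and Unc45b (0.78). Without the 2 libraries farthest from the median of Fos these were 0.76, 0.70, 0.60, 0.81, 0.89 and 0.64. Those closest to Nr4a3 were Hsd3b7 (0.83), Fosl2 (0.83), Hspa1b (0.83), Irs2 (0.82), Hspa1a (0.82) and Dnaja1 (0.82), and 0.78, 0.72, 0.76, 0.70, 0.76 and 0.71 without 2. Fosl2 encodes another FOS protein and Irs2 an insulin receptor substrate. Hspa1a and Hspa1b, which encode inducible HSP70 proteins, have near-identical sequences, so their counts are uncertain. These values were chosen as the highest of many and carry no test. No gene stood in both lists.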
